A study of Homo sapiens with 6 samples.

Results

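TM4SF1, TM4SF4 and TM4SF18 are 3 genes of the L6 family of membrane proteins that lie next to each other in band 3q25. They were taken as every catalogue probe whose RefSeq transcript belonged to one of these genes, which gave 3 of 19721 genes named on the array and 4 of its 57176 probes, 34134 of them from the catalogue. TM4SF1 had 2 probes, TM4SF4 and TM4SF18 had 1 each. TM4SF1 and its neighbours were chosen by the knockdown minus control difference of TM4SF1 on these arrays, so values of the 3 genes are a description and carry no test.

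All 6 arrays were made from REH, an established line of human B-cell precursor leukemia cells in which 1 ETV6 allele is fused to RUNX1 and the other is lost. Control stands below for the 3 arrays of cells given a non-targeting short hairpin RNA (shRNA), and knockdown for the 3 arrays of cells given an shRNA to silence the fusion, with replicates numbered 1 to 3 in each. Per the study's methods both hairpins were delivered by lentivirus, cells were sorted for a green fluorescent marker, the knockdown used 1 hairpin against the ETV6 part of the fusion, and the control hairpin was an ETV6 hairpin that does not hit the fusion transcript. Each group is thus 1 cell line with 1 hairpin, and the study calls the replicates biological.

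L6 family proteins cross the membrane several times and resemble tetraspanins in shape, without sharing their signature sequence. TM4SF1, first known as tumor antigen L6, is a surface protein of endothelial cells and many carcinomas that gathers in membrane microdomains and has a role in cell projections and migration. TM4SF4 is known from liver and intestine, and little is known of TM4SF18.

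The arrays had median raw intensities between 66 and 75, and negative control spots between 42.3 and 48.0, and 47.6% to 52.5% of spots were well above background, with the lowest share on control replicate 3. All 6 arrays lay on 1 slide scanned once. Controls 1 and 2 lay in slide row 1, whereas control 3 and the 3 knockdown arrays lay in row 2. Intensities were variance stabilized, which gives a generalized log2 scale (glog2) that understates differences of dim probes, and 27490 probes above the negative controls were retained and tested with limma. Called means a Benjamini-Hochberg adjusted p under 0.05. In all, 1.74% of retained probes were called, 1.28% lower and 0.458% higher in knockdown.

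The fusion protein keeps the DNA-binding domain of RUNX1 and lacks the ETS domain of ETV6. RefSeq promoters (GRCh38.p14, from 250 bases before to 50 bases after the start) were searched on both strands for the RUNX sites TGTGGT and TGCGGT and, as a motif of the ETV6 family for comparison, the ETS core GGAAGT. The stretches before the start are shown for TM4SF1, the gene with the low knockdown values, and for its neighbour TM4SF18, with matches in capitals (all read on the opposite strand, none overlapping another). They lie on the minus strand, at chr3:149377650-149377899 for TM4SF1 and chr3:149333637-149333886 for TM4SF18.
TM4SF1: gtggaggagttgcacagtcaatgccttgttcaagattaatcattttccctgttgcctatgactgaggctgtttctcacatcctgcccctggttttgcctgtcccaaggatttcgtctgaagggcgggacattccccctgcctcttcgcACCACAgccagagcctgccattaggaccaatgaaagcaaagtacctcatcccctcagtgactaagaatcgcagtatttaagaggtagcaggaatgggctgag
TM4SF18: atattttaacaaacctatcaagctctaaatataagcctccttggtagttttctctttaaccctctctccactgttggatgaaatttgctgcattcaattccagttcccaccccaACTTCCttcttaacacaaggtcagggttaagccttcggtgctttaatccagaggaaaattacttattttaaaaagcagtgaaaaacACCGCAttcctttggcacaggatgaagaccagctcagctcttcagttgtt
In TM4SF1 the capitals are ACCACA, the reverse complement of TGTGGT, from position -102 relative to the start. In TM4SF18 they are ACTTCC, the reverse complement of GGAAGT, from position -136, and ACCGCA, the reverse complement of TGCGGT, from position -50. The TM4SF4 window held none of the 3 motifs. Of the L6 genes outside the cluster, TM4SF5 also held ACCACA, from position -176, while TM4SF19 and TM4SF20 held none of the 3. Among 27305 promoter windows of this length, 13.1% held TGTGGT, 7.1% TGCGGT and 23.2% GGAAGT on either strand, so a match by itself is common.

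First, the targeted transcripts were examined. ETV6 (probe A_33_P3356325) was at 7.92, 8.05 and 8.37 glog2 in control and at 7.50, 7.46 and 7.29 in knockdown. All control arrays were above all knockdown arrays, with a difference of -0.70 (SE 0.14) that did not pass the threshold (adjusted p = 0.0514). Under spike-in scaling it was -0.34 (adjusted p = 0.318). The other ETV6 probe was well above background on 0 of 6 arrays. Of RUNX1, the other partner of the fusion, 5 probes differed by -0.26 to 0.03 (adjusted p from 0.51 to 0.944), and by 0.10 to 0.39 under spike-in scaling. Which of these ETV6 and RUNX1 probes lie in the fused parts was not examined, so they do not measure the fusion transcript by itself. The study followed the fusion protein and transcript after knockdown by Western blot and RT-qPCR.

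TM4SF1 was bright in control and close to background in knockdown. Raw intensity of probe A_33_P3390057 was 1416, 1518 and 1413 on control arrays 1 to 3 and 85.5, 69 and 64 on knockdown arrays 1 to 3, with local backgrounds of 29 to 35 on all arrays. After normalization it was 10.53, 10.56 and 10.36 glog2 in control and 5.96, 5.72 and 5.64 in knockdown. The groups were far apart, and the spread within each was small. Mean levels were 10.48 ± 0.11 (SD, n = 3) and 5.77 ± 0.17 (SD, n = 3), so that knockdown differed by -4.71 (SE 0.12). On this scale that is 26.1-fold lower, a size that the scale understates for values so near background. The scanner software marked the probe as well above background on all 6 arrays, but only 1 of the 3 knockdown values exceeded the retention threshold set from the negative controls.

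The other TM4SF1 probe, A_32_P231617, was dimmer and lay in the same direction. Raw intensity was 307, 348 and 344 in control and 101, 54 and 52 in knockdown, which is 8.26, 8.38 and 8.27 glog2 against 6.24, 5.20 and 5.19. Knockdown replicate 1 stood above the other two, with a local background of 58 around this spot against 32 and 29 on knockdown arrays 2 and 3. It was also the only knockdown array on which this probe was well above background, while all 3 control arrays were. Mean levels were 8.30 ± 0.07 and 5.54 ± 0.60 (SD, n = 3 each), a measured difference of -2.76 (SE 0.35). With 2 of 3 knockdown arrays at background, the floor of the scale sets a limit to this difference, and no fold is given for the probe. Within slide row 2, where control 3 is the only control array, both probes remained lower, by -4.58 for A_33_P3390057 and -2.72 for A_32_P231617.

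**Figure D1:**
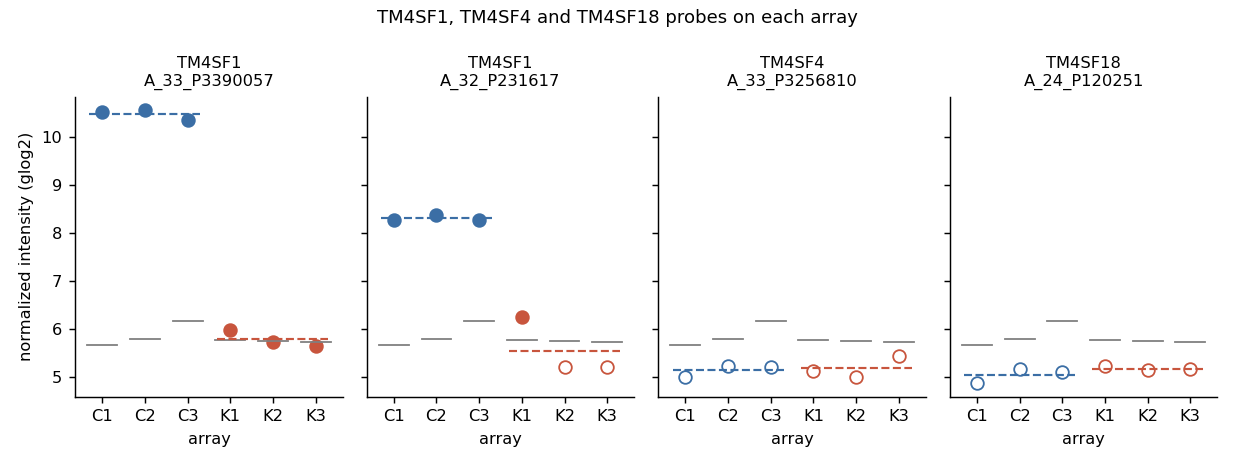
Normalized intensity (glog2) of the TM4SF1, TM4SF4 and TM4SF18 probes on control arrays (C1 to C3, blue) and knockdown arrays (K1 to K3, red). Filled circles are well above background by the scanner's flag, open circles are not, dashed lines are group means (n = 3) and grey ticks are the retention threshold of each array. TM4SF1 falls from 10.48 to 5.77 and from 8.30 to 5.54, and TM4SF4 and TM4SF18 stay under the threshold on every array.

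Against all retained probes, the TM4SF1 difference of probe A_33_P3390057 was the lowest of 27490, and the only one of -4 or below. A total of 25 probes differed by -2 or less, the other TM4SF1 probe among them. That probe is given no rank, since its knockdown values are mostly at background. The difference over all retained probes had a median of -0.001. The rank is given as a description, since it belongs to the comparison by which TM4SF1 was chosen.

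**Figure D2:**
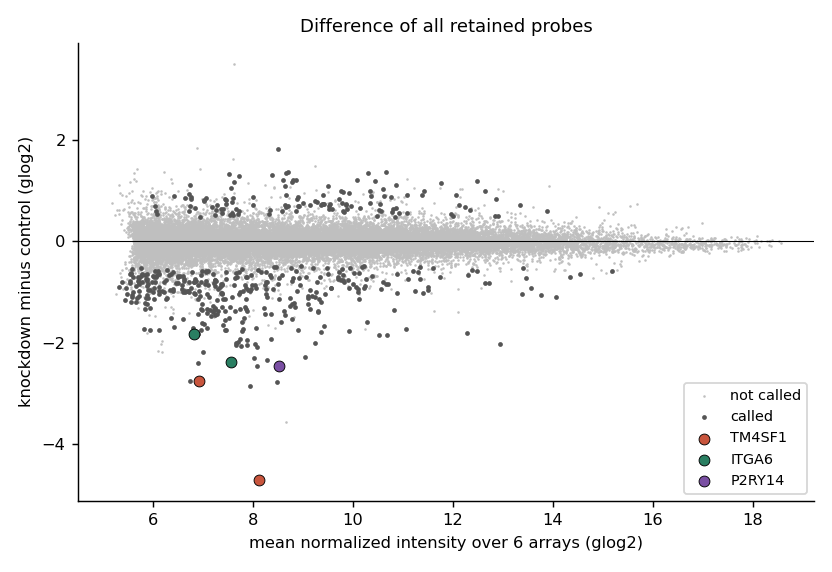
Knockdown minus control (glog2) against mean intensity over the 6 arrays (glog2) for all 27490 retained probes, with called probes in dark grey. The 2 TM4SF1 probes (red) are at -4.71 and -2.76, the 2 ITGA6 probes (green) at -2.37 and -1.83 and the P2RY14 probe (purple) at -2.46.

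The size of the TM4SF1 difference changed with the processing, and its direction did not. For probe A_33_P3390057, the ratio of mean raw intensities was 19.9, and that of mean background-subtracted (processed) intensities 58.0. On log2 scales the difference ran from -3.84 (14.4-fold) with normexp background correction and quantile normalization to -5.87 (58.6-fold) with processed signals scaled to the 75th percentile. It was -4.34 with scaling to the spike-in probes and -4.97 in the deposited log2 values. This probe had the lowest difference of all retained probes under each of these 5 treatments. The dimmer probe A_32_P231617 ran from -1.99 to -4.70.

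**Figure D3:**
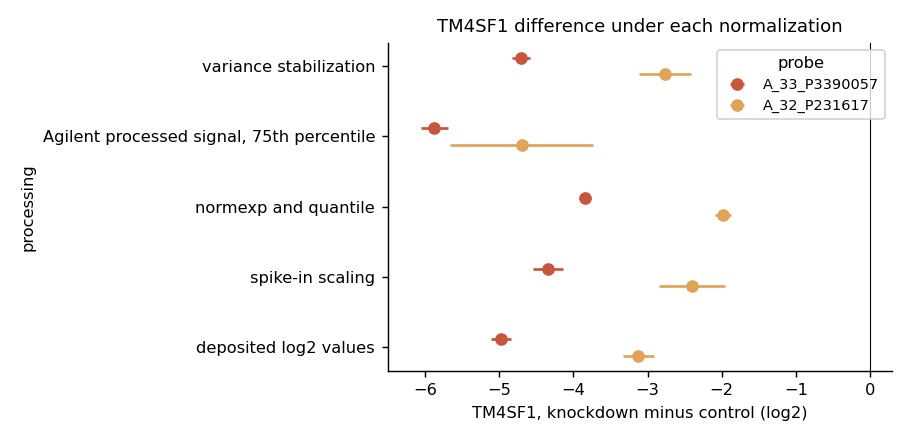
TM4SF1 difference, knockdown minus control (log2), for both probes under 5 normalizations. Points are differences of group means and bars are standard errors from the spread within groups (n = 3 each). All points lie below 0, from -5.87 to -1.99.

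TM4SF4 and TM4SF18, the genes on either side, were not measured above background in either group. TM4SF4 (A_33_P3256810) had raw intensities of 45.5, 52.5 and 55.5 in control and 53, 49.5 and 58 in knockdown. TM4SF18 (A_24_P120251) had 43, 50.5 and 53 in control and 56, 52.5 and 51 in knockdown. These values are close to the medians of the negative control spots, and both probes were at 0 of 6 arrays well above background. Neither exceeded the retention threshold on any array. No fold is given for either gene, and a transcript too scarce for 1 probe cannot be told from none. The remaining genes of the family behaved likewise. TM4SF5, TM4SF19 and TM4SF20 had 1 probe each, all at 0 of 6 arrays well above background, so TM4SF1 was the only L6 gene of the 6 measured here that was above background in REH.

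Next, the genes around the cluster were examined, to see whether the low TM4SF1 values were shared along this stretch of chromosome 3. Genes were taken by their order and not by band. The list held the 20 protein-coding genes on each side in the RefSeq gene order, plus TM4SF1-AS1, 41 in all. Probes were matched for 38 genes (not for TM4SF1-AS1, MINDY4B and LOC124909494, for which the custom lncRNA probes were not searched), and 25 probes of 19 genes were retained. Only P2RY14 was called, which is 4% of the retained probes against 1.74% of all. Differences were 15 lower and 10 higher with a median of -0.13 (0.23 under spike-in scaling), and groups did not overlap for 5 lower and 5 higher probes, where over all retained probes this share was 9.88% lower and 9.05% higher (18.9% in all).

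None of the 3 nearest genes on either side was called. On one side, the WWTR1 probe, for the transcriptional coactivator TAZ, was at 0 of 6 arrays well above background. COMMD2 was measured on 6 arrays with a difference of -0.15 (adjusted p = 0.707; 0.22 under spike-in scaling), and ANKUB1 was at 0 arrays. On the other side, CP, which encodes the copper carrier ceruloplasmin, was not retained. HPS3, a subunit of a complex for lysosome-related organelles, differed by 0.27 (adjusted p = 0.421), and HLTF, a chromatin remodeler of the SWI/SNF family, by 0.05 (adjusted p = 0.917).

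P2RY14 encodes a receptor for UDP-glucose and is the gene at place 16 on the TM4SF4 side. It was at 9.56, 9.76 and 9.94 glog2 in control and at 6.86, 7.51 and 7.51 in knockdown, with no overlap. P2RY14 fell by 2.46 (SE 0.19, adjusted p = 0.00107), and it was called under all 15 alternatives, with differences from -2.72 to -2.10 and adjusted p up to 0.00921. Near it, the related receptor genes GPR171, P2RY13 and P2RY12 were not retained, with at most 1 array well above background each. With the replicate number as a block, SLC9A9, a sodium/proton exchanger of endosomes, was called as well (-0.78, adjusted p = 0.0143 with the block and 0.219 without). The 4 retained probes of SELENOT disagreed in sign (-0.20, -0.16, -0.15 and 0.19), and none was called.

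**Figure D4:**
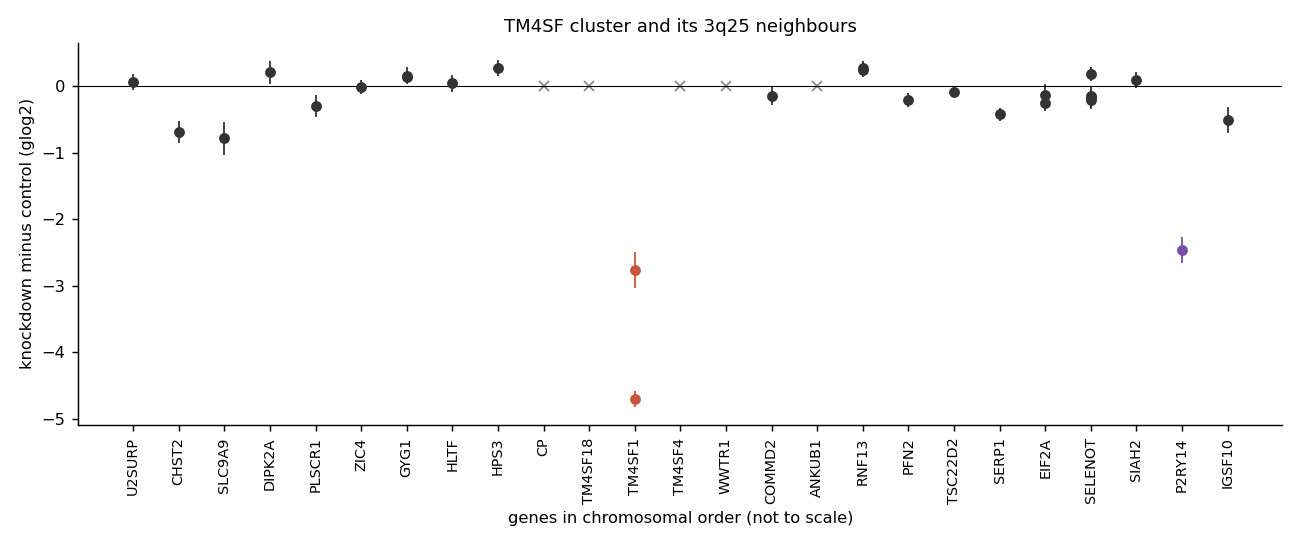
Knockdown minus control (glog2, with limma's standard error) of each retained probe for TM4SF1 (red), P2RY14 (purple, called) and the other neighbours in chromosomal order, not to scale. Of genes with no retained probe, only TM4SF4, TM4SF18 and those among the 3 nearest on each side are drawn, as crosses. TM4SF1 at -4.71 and -2.76 and P2RY14 at -2.46 lie apart from the other retained neighbours, which run from -0.78 to 0.27.

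Tetraspanins were then compared, as the larger family that TM4SF1 resembles. Of 33 genes, 23 had retained probes, 30 in all, of which 15 were lower and 15 higher, with a median difference of 0.02. TSPAN7 and CD81 were called, 1 in each direction, which is 6.67% of the retained probes against 1.74% of all. Under spike-in scaling the median was 0.38, with 0 lower and 4 higher probes called. Groups did not overlap for 4 lower and 9 higher probes, against 9.88% lower and 9.05% higher of all retained probes.

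TSPAN7, a tetraspanin with known roles in neurons that is also found in leukemias, was at 9.40, 9.42 and 9.26 glog2 in control and 8.45, 8.34 and 8.37 in knockdown. It fell by 0.97 (SE 0.10, adjusted p = 0.00272), but was not called under spike-in scaling (-0.61, adjusted p = 0.155) or in the fit that held a slide row term (-0.87, adjusted p = 0.0509). CD81, a member of the B-cell coreceptor complex, went the other way. Probe A_33_P3373375 was at 13.62, 13.52 and 13.59 in control and 14.08, 14.14 and 14.32 in knockdown, a rise of 0.60 (SE 0.10, adjusted p = 0.0294). The brighter CD81 probe, A_23_P13425, differed by 0.47 in the same direction without passing the threshold (adjusted p = 0.0533).

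The tetraspanin calls changed with the fit. With the replicate number as a block, which called 3.79% of all retained probes, 6 probes of 5 genes were called, adding TSPAN3 (0.51, adjusted p = 0.0437), TSPAN33 (0.49, adjusted p = 0.0339), CD82 (-0.77, adjusted p = 0.0247) and the brighter CD81 probe (adjusted p = 0.043). With the slide row as a term, no tetraspanin probe was called. TSPAN7 was called without any 1 array, whereas of these 6 fits CD81 was called only without knockdown replicate 1, and its call was also lost with processed signals and with no filter. CD9 and CD151, tetraspanins known as integrin partners, differed by 0.29 (adjusted p = 0.415) and 0.38 (adjusted p = 0.167).

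TM4SF1 and tetraspanins are found at the surface together with integrins and other adhesion molecules, and 17 genes of this kind were examined. ITGA6, the integrin alpha 6 chain of laminin receptors, was the only one called, through both of its probes. Probe A_23_P210176 was at 8.94, 8.74 and 8.58 glog2 in control and 6.69, 6.22 and 6.24 in knockdown, and fell by 2.37 (SE 0.16, adjusted p = 0.000585). Probe A_33_P3231447 was at 7.89, 7.63 and 7.69 in control and 6.12, 5.97 and 5.62 in knockdown, and fell by 1.83 (SE 0.15, adjusted p = 0.00108). Groups were well apart for both, and both were called under all 15 alternatives.

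The other surface partners differed much less. Of 16 retained probes of 11 genes, ITGA6 included, 2 were called, both of ITGA6 (12.5% against 1.74% of all). In this whole list 7 were lower and 9 higher, and the median was 0.02 (0.39 under spike-in scaling). ITGB1, a beta chain that pairs with alpha 6, was at -0.27 (adjusted p = 0.334) and at 0.09 under spike-in scaling. The brightest probe of ITGA4 was at 0.32 (adjusted p = 0.306). DDR1, a collagen receptor kinase described with TM4SF1, differed by -0.29 (adjusted p = 0.737), a value that rested on control replicate 1 (9.20 against 8.09 and 8.02 in control, 8.04, 8.13 and 8.28 in knockdown) and was 0.09 without it, 0.13 with the slide row as a term and 0.08 under spike-in scaling. SDCBP, which encodes the adaptor syntenin, differed by 0.001 (adjusted p = 0.998). The integrin chains ITGA2, ITGA3, ITGAV and ITGB5 were at 0 arrays well above background.

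**Figure D5:**
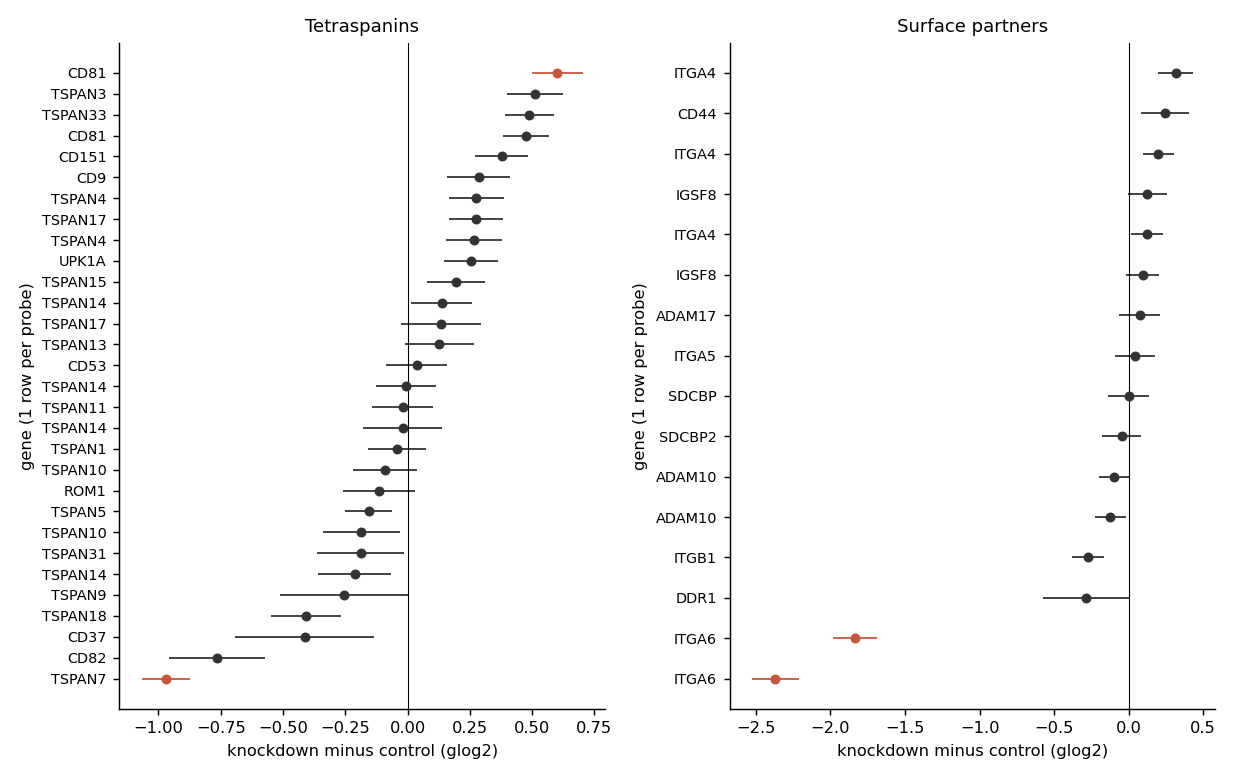
Knockdown minus control (glog2, with limma's standard error) of each retained tetraspanin probe (left, 30 probes) and surface partner probe (right, 16 probes), called probes in red. TSPAN7 is at -0.97 and one CD81 probe at 0.60, and the ITGA6 probes at -2.37 and -1.83 lie below all other partners.

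Since TM4SF1 is known from endothelial and epithelial cells, markers of other cell types were examined beside it. Of 8 endothelial markers 4 were retained with 6 probes, of which 4 were called, all lower (66.7% against 1.74% of all retained probes, and 1.28% called lower). Their mean level ran from 7.57 to 7.77 glog2 in control and from 6.95 to 7.27 in knockdown. PECAM1, an adhesion molecule that blood cells carry too, fell with all 3 probes (-1.14, -0.68 and -1.13, adjusted p = 0.0463, 0.015 and 0.0121). ESAM, an adhesion molecule of endothelium and blood progenitors, fell by 0.94 (adjusted p = 0.0148). CDH5 differed by 0.02 (adjusted p = 0.958) and TIE1 by -0.29 (adjusted p = 0.662; 0.07 under spike-in scaling), and the defining markers KDR and CLDN5 were at 0 arrays well above background. VWF was well above background on 4 of 6 arrays but not retained, at 5.57, 5.68 and 5.58 glog2 in control and 5.76, 5.69 and 5.77 in knockdown, and TEK was at 1 array. The PECAM1 calls were lost under 10, 7 and 6 of 15 alternatives and that of ESAM under 4, among them spike-in scaling and the slide row as a term for each probe. With the slide row the differences were -1.25, -0.65 and -1.21 for PECAM1 and -0.87 for ESAM, and under spike-in scaling -0.78, -0.32 and -0.77 for PECAM1 and -0.58 for ESAM.

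B-cell precursor markers stood at 13.12 to 13.16 glog2 (mean of 9 of 10 genes) in control and 13.32 to 13.57 in knockdown, and VPREB1 was not retained. None of their 15 probes was called by limma, where 1.74% of all retained probes were. Of the 15, 1 was lower (50.3% of all retained probes were lower), and 6 were higher without overlap between groups, against 9.05% of all. Epithelial markers held 2 retained genes of 5, at 9.22 to 9.61 in control and 9.19 to 9.70 in knockdown, and EPCAM and CDH1 were at 0 arrays. T-cell markers (4 of 6 retained) were at 6.52 to 6.61 and 6.61 to 6.99. Monocyte markers (4 of 6 retained) were at 7.30 to 7.44 and 7.13 to 7.38, with CD68 called lower (-0.58, adjusted p = 0.0284). CD68 was not followed with the slide row as a term or under spike-in scaling, which moved the median difference of all retained probes to 0.36. The part of any of these cell types in the TM4SF1 values was not tested. Fewer cells of a kind and less RNA per cell cannot be told apart in bulk RNA.

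Finally, the genes with the profile most like TM4SF1 (probe A_33_P3390057) were listed by Pearson's r over the 6 arrays. Among 1052 probes of 975 symbols that spanned at least 1 log2 unit, the 5 closest were NRP1 (r = 0.9989), ATP6V0A4 (0.9987), OLIG3 (0.9985), MECOM (0.9981) and EFNA1 (0.9978). NRP1 encodes a coreceptor for semaphorins and vascular endothelial growth factor, ATP6V0A4 a subunit of the vacuolar proton pump, and EFNA1 a ligand of Eph receptors. OLIG3 and MECOM encode transcription factors. All 5 had lower values in knockdown, with differences of -1.74 for NRP1, -2.77 for ATP6V0A4, -2.85 for OLIG3, -1.28 for MECOM and -2.29 for EFNA1. NRP1, for example, was at 9.85, 9.73 and 9.71 in control and 8.06, 8.03 and 7.99 in knockdown.

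Such likeness is a description of how the arrays fall into groups. A total of 103 symbols had r above 0.95, and Spearman's rho of the 5 ran from 0.771 to 0.943, while 3 other symbols had a rho of 1. P2RY14 and ITGA6, which fell most in the lists above, were not among the 5.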

How the data were processed

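Total RNA of 6 REH samples was hybridised in 1 color to custom Agilent arrays. Per the file headers, Feature Extraction 10.7.1.1 gave the deposited raw median intensity, local background intensity, processed intensity and other values (flags), none normalized between arrays. The authors also deposited normalized log2 values of 27869 probes. Members and lists were chosen with earlier results of these data known.

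Raw intensities were fitted with a variance stabilizing model written anew (affine calibration and inverse hyperbolic sine, 0.9 of least squares kept). Outlier spots were left out, spots of a probe averaged, and a probe retained where its glog2 value exceeded 1.1 times the 0.95 quantile of 308 negative controls on at least 60% of a group's arrays. Values correlated with the deposited ones at r from 0.99906 to 0.99968 per array, across probes. The 2 groups were then set against each other in limma 3.58.1 under R 4.3.3 (two-sided, Benjamini-Hochberg over 27490 probes), tested on simulated data. An exact permutation test of 3 against 3 cannot go below p = 0.1. The number of arrays limits precision.

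Same-numbered control and knockdown arrays deviated together from their group means (r = 0.43, 0.29 and 0.20 across probes; -0.33 to 0.19 between other numbers, where 2 with 3 reached 0.19 and 3 with 2 0.17), so the labels' numbers were taken to pair samples, and the fit with the replicate block was run as an alternative. RefSeq names were matched for 25728 of 34134 catalogue probes (75.4%). The design is on hg19, and no probe coordinates are printed. Named were all called genes of a list, else the 3 with the largest differences, and the 3 nearest neighbours on each side; a gene with several probes is given by its brightest one unless they disagree. SLC9A9, SELENOT, GPR171, P2RY13, P2RY12, TSPAN3, TSPAN33, CD82, CD9, CD151, ITGB1, ITGA4, DDR1, SDCBP and the undetected integrins were named after their values were seen.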

Additional observations from a re-analysis of the deposited data

How the results depend on the processing

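TM4SF1 was lower in knockdown under all 15 alternatives. Probe A_33_P3390057 was at -5.87 with processed signals, -3.84 with normexp and quantile, -4.34 with spike-in scaling and -4.97 in the deposited values, and A_32_P231617 at -4.70 with processed signals and -1.99 with normexp. Leaving out 1 array gave -4.80 to -4.64 and -3.11 to -2.58. TM4SF4, TM4SF18, TM4SF5, TM4SF19 and TM4SF20 were retained under no alternative that filters on signal.

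Of all retained probes, 478 were called (352 lower, 126 higher, 26.4% of calls higher). The replicate block gave 1042 calls (668 lower, 374 higher, 35.9% higher), spike-in scaling, which moved the median difference to 0.36, 886 (138 and 748, 84.4% higher), no filter 224 (177 and 47) and the slide row as a term 227 (207 and 20, 8.81% higher). Leaving out 1 array gave 193 to 553 calls (157 to 413 lower, 36 to 140 higher). All 478 probes were called with the replicate block too. Called neighbour probes were 1, and 2 with normexp (SERP1, adjusted p = 0.0456) and the replicate block, and 1 to 2 leaving out 1 array (CHST2 without control replicate 1, adjusted p = 0.046; IGSF10 without knockdown replicate 1, adjusted p = 0.0329). Called tetraspanin probes were 2 (with processed signals TSPAN7 and TSPAN33 in place of TSPAN7 and CD81), then 4 with normexp, spike-in scaling, and the intensity trend and robust prior, 1 with no filter, 6 with the replicate block, 0 with the slide row (limma), and 1 to 2 leaving out 1 array. ITGA6 kept 2 called probes throughout. ETV6 passed only with the intensity trend and robust prior (-0.70, adjusted p = 0.0438; adjusted p up to 0.318 elsewhere). The lowest likeness of the 5 genes most like TM4SF1 was 0.771 by Spearman's rho. PECAM1 and ESAM were run under the alternatives after the data were seen. PECAM1 had no called probe (limma) without control replicate 2, control replicate 3 or knockdown replicate 2, and ESAM was not called without knockdown replicate 3. The causes were not tested. Signal near background in knockdown limits how well the size of the TM4SF1 difference is known.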
